A study of Mus musculus with 12 samples.

Results

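The intrinsic and the receptor-driven routes to apoptosis were followed through 8 genes of a 770-gene mouse panel: *Trp53*, *Bax*, *Bad*, *Bid*, *Bcl2*, *Bcl2l1*, *Casp8* and *Casp9*. They were picked by gene symbol for their role and all 8 were present. The panel, nCounter PanCancer Pathways, counts RNA molecules with color-coded probes and without amplification. It was run on 5 *RBS* lesions, 4 control eyes and 3 Shh-MBs, each from a different animal. *RBS* lesions came from Rax-creERT2::Ctnnb1(ex3)Fl/+SmoM2Fl/+ embryos exposed to tamoxifen at E8.5. There the Cre recombinase is inducible by tamoxifen and driven by the *Rax* promoter in retinal precursor cells. It removes exon 3 of *Ctnnb1* from one allele, which stabilizes beta-catenin, and switches on SmoM2, a constantly active form of the Hedgehog signal transducer Smo. Control eyes came from Ctnnb1(ex3)Fl/+SmoM2Fl/+ embryos, which carry both floxed alleles but no Cre, and whether these 4 were exposed to tamoxifen is not given in the sources used here. Eyes of both genotypes were taken at E18.5. Shh-MBs are medulloblastomas, tumors of the cerebellum, and came from hGFAP-cre::SmoM2Fl/+ animals aged 14 days, in which the human GFAP promoter drives Cre in neural precursors and which carry no *Ctnnb1* allele of this kind. Tissue, age and genotype therefore cannot be told apart in any comparison with Shh-MBs. The lesions take the place of most regular eye structures, so each *RBS* sample is a mixture of lesion and remaining eye tissue.

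p53, the product of *Trp53*, is a transcription factor that is held low by Mdm2 and accumulates after DNA damage or oncogenic signaling. Among its targets are genes for cell cycle arrest and for death, *Bax* included. Bax opens the outer mitochondrial membrane, Bcl2 and Bcl-xL (the long product of *Bcl2l1*) hold it in check, and the BH3-only proteins Bad and Bid tip this balance, Bad by occupying the protective proteins and Bid after cleavage by caspase 8. Caspase 8 starts the cascade at death receptors, caspase 9 starts it at the apoptosome after release of cytochrome c, and both activate further caspases. Much of this control acts on proteins, by cleavage, phosphorylation and stability, which RNA levels do not show. In the developing retina and cerebellum, programmed death removes surplus neurons and precursors.

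Depth ran from 335349 to 716963 counts above background per sample, estimated from the spacing of low values, and the shallowest was *RBS* lesion 1. None of the 8 genes was at the lowest value of any sample, and the weakest measurement, *Bcl2* in Shh-MB 2, still rested on 24.6 counts. Signal is given below on the linear scale in the authors' normalized units. Differences are log2 differences of the signal plus 1, tested with limma over all 770 genes and called at a Benjamini-Hochberg adjusted *p* under 0.05. On this scale the median gene was 0.17 higher in *RBS* lesions than in controls, 0.53 higher in *RBS* lesions than in Shh-MBs and 0.22 below control eyes in Shh-MBs (log2 difference -0.22). The comparisons share samples, so their results are not independent of each other. Animals of one group may share a litter, which the labels do not give.

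Of the 8 genes, 5, namely *Bcl2*, *Bcl2l1*, *Bax*, *Bid* and *Bad*, were higher in the lesions than in control eyes, and none was lower. The protective genes and the death-promoting genes of the Bcl2 family were thus raised side by side, by 1.28- to 1.61-fold, while *Trp53*, *Casp8* and *Casp9* were not called. Under the 3 other scalings tried all 5 stayed higher, with *Bcl2* and *Bcl2l1* called under each of them and *Bax*, *Bad* and *Bid* under some. Over the whole panel 33% of genes were called higher and 18.2% lower in this comparison. The groups did not overlap for 4 of the 8, against 43.4% of all genes. In this bulk tissue, fewer cells of a type and less RNA per cell cannot be told apart. The median log2 difference of the 8 was 0.40. Against Shh-MBs, *RBS* lesions had more *Casp8*, *Bcl2*, *Bcl2l1* and *Bad* and less *Trp53*, where 48.1% of all genes were called higher and 12.7% lower. In that comparison 5 of the 8 did not overlap, as did 59.9% of all genes, and the median difference of the 8 was 0.45. Shh-MBs had more *Trp53* and less *Casp8* than control eyes, with 9.61% of all genes called higher and 31.4% lower. There 4 of the 8 did not overlap, against 48.2% of all genes, and the median of the 8 was -0.22.

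Signals of marker genes for cell types and for dividing cells also differed between the groups. Of 13 dividing-cell genes on the panel, 10 were lower in lesions than in control eyes and 0 higher, and their summed signal was 5732 to 7012 in *RBS* lesions, 12180 to 15141 in control eyes and 13987 to 15748 in Shh-MBs. Of 6 neuronal genes, 5 were higher in *RBS* lesions, with sums of 2666 to 3515 against 841 to 968 in control eyes and 781 to 1186 in Shh-MBs. In Shh-MBs 4 of these 6 were higher and 1 was lower than in control eyes, with a median log2 difference of 0.96. The 4 myeloid and lymphoid genes, 2 of them called higher, summed to 152 to 213 in *RBS* lesions, with 74.7 to 111 for control eyes and 100.4 to 215 for Shh-MBs. Of these, *Il2rb* was at the lowest value in all 5 *RBS* lesions, all 3 Shh-MBs and 3 of the 4 control eyes. Of 6 surface epithelium genes, 4 were higher in *RBS* lesions (461 to 805 against 230 to 409), and *Calml3* and *Itga2* had no signal above the lowest value in any Shh-MB, where the 6 summed to 8.82 to 19.8. *Fgf15*, a gene of retinal precursor cells, measured 835 to 1094 in control eyes, 74.6 to 152 in *RBS* lesions (log2 difference -2.89, adjusted *p* = 1.31e-05) and 1.00 to 4.87 in Shh-MBs. The 6 genes listed for the cerebellar granule lineage (*Ccnd2*, *Gli1*, *Hhip*, *Mycn*, *Sfrp1* and *Zic2*) summed to 11339 to 14038 in Shh-MBs and to 2831 to 4428 in both eye groups. *Gli1* and *Hhip* are also genes of the Hedgehog pathway, so this sum does not separate lineage from Hedgehog signaling. The 3 endothelial genes, 1 of them lower in *RBS* lesions, summed there to 695 to 988 against 1789 to 2259 in control eyes and 129 to 235 in Shh-MBs. The lower one was *Kdr*, at 562 to 820 in *RBS* lesions against 1641 to 2115 in control eyes. *Angpt2* and *Flt1* were not called there, and the median log2 difference of the 3 was 0.12. The 9 mesenchyme genes, 1 higher and 2 lower in the lesions, summed to 21208 to 38369 in *RBS* lesions, 26357 to 59350 in control eyes and 1748 to 2410 in Shh-MBs. The part of these differences in the results below was not tested.

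**Figure D1:**
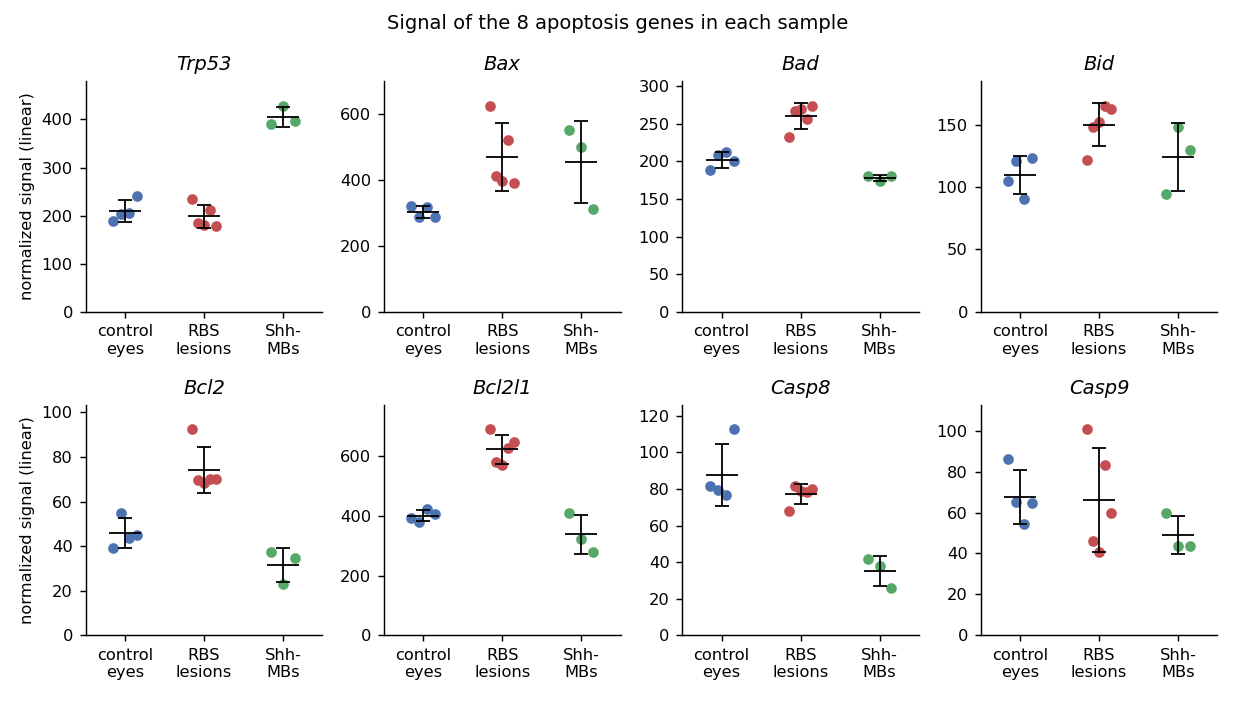
Normalized signal (linear scale from 0) of each of the 8 genes, 1 panel per gene. Each point is 1 sample (4 control eyes, 5 *RBS* lesions, 3 Shh-MBs), wide bars are means and whiskers 1 SD. *Trp53* stands high in the 3 Shh-MBs (389.9 to 429), and *Bcl2* and *Bcl2l1* stand high in the 5 *RBS* lesions (68.2 to 92.4 and 572 to 689.8).

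*Trp53* was high in Shh-MBs. Its signal was 389.9, 429 and 398 in the 3 Shh-MBs. In *RBS* lesions 1 to 5 it was 235, 185, 181, 212 and 178, and in control eyes 1 to 4 it was 188, 203, 206 and 241. Every Shh-MB lay above every eye sample, while the ranges of *RBS* lesions and control eyes lay across each other. Means were 405 ± 20.5 in Shh-MBs (SD, *n* = 3), 209.6 ± 22.2 in control eyes (*n* = 4) and 198 ± 24.6 in *RBS* lesions (*n* = 5). The gene was 1.94-fold higher in Shh-MBs than in control eyes (log2 difference 0.95, 95% CI 0.68 to 1.22, adjusted *p* = 0.000611). It was lower in *RBS* lesions than in Shh-MBs by 1.03 on the log2 scale (log2 difference -1.03, 95% CI -1.32 to -0.75, adjusted *p* = 0.000157). Between *RBS* lesions and control eyes the difference was -0.08 (95% CI -0.35 to 0.18, adjusted *p* = 0.598). Both calls against Shh-MBs were made under all 4 scalings tried, with log2 differences of 0.95 to 1.62 and of -1.88 to -1.03, and without any 1 sample.

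*Trp53* lies on chromosome 11 (chr11:69580348-69591873, GRCm38.p6). Promoter windows from RefSeq, 300 bases each with 250 before and 50 after an annotated start, were at hand for all 8 genes (11 windows, build GRCm38.p6) and were searched on both strands for 5 motifs. These were the p53 half-site, the E-box CACGTG that Myc proteins bind, the TCF/LEF core CTTTGA, the Gli motif GACCACCCA and the GC box GGGCGG. The p53 half-site occurred in 2 of the 11 windows, those of *Trp53* and *Bax*, and in 8.36% of all 32851 windows of the table. The same 2 windows held the E-box, which 7.15% of all windows hold. The window of *Trp53* (chr11:69580109-69580408, plus strand) is shown 5′ to 3′, with the p53 half-site, 75 bases before the start, and the E-box, at base 11 after it, in capitals.
Trp53: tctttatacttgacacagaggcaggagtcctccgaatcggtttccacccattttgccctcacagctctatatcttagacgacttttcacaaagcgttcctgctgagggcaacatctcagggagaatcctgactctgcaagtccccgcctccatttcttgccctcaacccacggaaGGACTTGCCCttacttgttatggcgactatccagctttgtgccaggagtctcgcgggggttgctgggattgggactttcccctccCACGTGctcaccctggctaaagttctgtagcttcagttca

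Of the protective genes, *Bcl2l1* had the smallest adjusted *p* of the 8 against control eyes. Its signal was 689.8, 579.7, 572, 628 and 648 in *RBS* lesions 1 to 5. Control eyes 1 to 4 gave 395, 380.5, 422 and 406, and Shh-MBs 1 to 3 gave 411, 323 and 281. All 5 *RBS* lesions lay above all other samples, and the highest Shh-MB lay within the range of the control eyes. The mean of 623 ± 49.1 in *RBS* lesions was 1.55-fold that of control eyes, 401 ± 17.6 (log2 difference 0.63, 95% CI 0.44 to 0.83, adjusted *p* = 0.000308). Against Shh-MBs, at 338 ± 66.7, the difference was 0.90 (95% CI 0.57 to 1.22, adjusted *p* = 0.000753), and under median centring of the samples it was 0.05 and not called. Shh-MBs and control eyes differed by -0.26 (95% CI -0.61 to 0.08, adjusted *p* = 0.200). That last difference was called when Shh-MB 1 was left out (-0.41, adjusted *p* = 0.0289), and it turned to 0.40 and was called under median centring (adjusted *p* = 0.0360).

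*Bcl2* itself, the founding protective member, moved in the same direction in *RBS* lesions. It measured 92.4, 69.7, 68.2, 69.96 and 69.996 in *RBS* lesions 1 to 5, against 39.3, 55.1, 43.9 and 44.9 in control eyes 1 to 4. In Shh-MBs 1 to 3 it measured 37.2, 23.0 and 34.6. The 3 groups did not overlap, with *RBS* lesions highest and Shh-MBs lowest, and 4 of the 5 *RBS* lesions lay within 2 units of each other. *RBS* lesion 1, the shallowest sample, stood above them. Means were 74.1 ± 10.3, 45.8 ± 6.68 and 31.6 ± 7.55. The difference between *RBS* lesions and control eyes was 0.68 (1.61-fold, 95% CI 0.39 to 0.98, adjusted *p* = 0.00209), and without *RBS* lesion 1 it was 0.60 (adjusted *p* = 0.00222). *RBS* lesions were 2.33-fold above Shh-MBs (log2 difference 1.22, 95% CI 0.80 to 1.64, adjusted *p* = 0.000529), a call that was lost under median centring (0.38, adjusted *p* = 0.0604) and quantile normalization (0.07, adjusted *p* = 0.674). Between Shh-MBs and control eyes the difference was -0.54 and was not called (95% CI -1.02 to -0.06, adjusted *p* = 0.0708). It passed the threshold with genes of low signal left out (adjusted *p* = 0.0462) and with all 12 samples in 1 fit (0.0296). Without Shh-MB 2 it was -0.33 (adjusted *p* = 0.190). Its sign depended on the scaling, with 0.13 under median centring and 0.52 after quantile normalization.

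The *Bcl2* promoter window on chromosome 1 (chr1:106714241-106714540, minus strand of GRCm38.p6) held none of the p53, E-box, TCF/LEF or Gli motifs and 7 GC boxes. It is shown because *Bcl2* rose together with *Bax*, whose window holds other motifs, and GC boxes on either strand are in capitals.
Bcl2: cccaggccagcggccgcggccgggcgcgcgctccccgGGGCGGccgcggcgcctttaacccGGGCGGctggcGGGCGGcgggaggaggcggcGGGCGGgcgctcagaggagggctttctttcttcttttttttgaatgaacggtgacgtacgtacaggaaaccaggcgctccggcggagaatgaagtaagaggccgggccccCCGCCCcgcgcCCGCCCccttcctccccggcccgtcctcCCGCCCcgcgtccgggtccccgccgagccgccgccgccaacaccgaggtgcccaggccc
The GC box was found in 5 of the 11 windows, which belong to *Bax*, *Bad*, *Bid*, *Bcl2* and *Casp9*, and in 35.7% of all windows. No letters of these 5 motifs were in the 3 windows of *Bcl2l1* or in that of *Casp8*.

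*Bax*, the pore-forming effector, was raised in *RBS* lesions with a wide spread. *RBS* lesions 1 to 5 measured 626, 412, 398, 522 and 390.1, and control eyes 1 to 4 measured 319.7, 287, 317 and 289. Shh-MBs 1 to 3 measured 551, 499.8 and 313. All *RBS* lesions lay above all control eyes, and the Shh-MBs were split, with 2 inside the *RBS* range and Shh-MB 3 among the control eyes. The mean was 469.6 ± 102 in *RBS* lesions and 303 ± 17.6 in control eyes, 1.52-fold apart (log2 difference 0.61, 95% CI 0.26 to 0.95, adjusted *p* = 0.00882). This call was narrowly missed after quantile normalization (0.41, adjusted *p* = 0.0560). Shh-MBs, at 455 ± 125, differed from control eyes by 0.54 without a call (95% CI 0.05 to 1.03, adjusted *p* = 0.0741). Without Shh-MB 3 that difference was 0.79 and was called (adjusted *p* = 0.00357), as it was under the 3 other scalings, where it was 0.86 to 1.21. *RBS* lesions and Shh-MBs differed by 0.06 (95% CI -0.49 to 0.61, adjusted *p* = 0.839), and it turned negative under the other scalings, to -0.78 with a call under median centring (adjusted *p* = 0.0125).

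The order of the *RBS* lesions was the same for *Bax* and *Trp53*: lesion 1 was highest, then lesion 4, lesion 2, lesion 3 and lesion 5. Lesions 1 and 4 are also the 2 shallowest *RBS* samples, at 335349 and 447854 counts, and the part of depth in this order was not tested. The *Bax* window on chromosome 7 (chr7:45466849-45467148, minus strand of GRCm38.p6) is shown for its match to the p53 half-site. The half-site starts 201 bases before the start and overlaps the TCF/LEF core, which starts at 194 bases before it. These and the 2 E-boxes are in capitals, and 3 GC boxes are left in lower case.
Bax: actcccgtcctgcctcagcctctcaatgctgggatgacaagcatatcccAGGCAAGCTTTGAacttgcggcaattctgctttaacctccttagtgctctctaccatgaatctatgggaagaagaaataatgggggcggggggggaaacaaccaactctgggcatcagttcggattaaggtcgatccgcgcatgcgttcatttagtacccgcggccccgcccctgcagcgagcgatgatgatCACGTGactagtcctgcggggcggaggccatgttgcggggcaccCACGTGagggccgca
The TCF/LEF core was in no other window of the 8 genes and is in 16.0% of all windows. The Gli motif was in 0 of the 11 and in 0.253% of all windows. A match of letters is a description of the sequence and was not tested for binding.

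The BH3-only genes had smaller estimated rises in *RBS* lesions over control eyes than *Bcl2*, *Bcl2l1* and *Bax*, a ranking that was not tested. *Bad*, whose protein is silenced by phosphorylation in growth-factor-fed cells, measured 232, 267, 270.1, 257 and 274 in *RBS* lesions 1 to 5. Control eyes 1 to 4 gave 188, 208, 213 and 200.1, and Shh-MBs 1 to 3 gave 181, 174 and 180.5. *RBS* lesions lay highest and Shh-MBs lowest, without overlap between any 2 groups, and the SDs of 17.0, 10.7 and 3.85 around means of 260.0, 202 and 178 were narrow. The difference between *RBS* lesions and control eyes was 0.36 (1.28-fold, 95% CI 0.17 to 0.55, adjusted *p* = 0.00606), and it was 0.18 (adjusted *p* = 0.201) after median centring and 0.21 (adjusted *p* = 0.0931) after quantile normalization. Against Shh-MBs it was 0.54 (95% CI 0.32 to 0.76, adjusted *p* = 0.00125), close to the median gene, and it turned to -0.31 under median centring and to -0.02 after quantile normalization. Shh-MBs differed from control eyes by -0.18 without a call (95% CI -0.39 to 0.03, adjusted *p* = 0.155), a difference that turned to 0.49 and was called under median centring (adjusted *p* = 0.0245).

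*Bid*, the link from caspase 8 to mitochondria, measured 122, 148, 152, 165 and 162 in *RBS* lesions 1 to 5. Control eyes 1 to 4 measured 105, 121, 90.6 and 123, and Shh-MBs 1 to 3 measured 94.3, 149 and 129.6. In 4 *RBS* lesions it lay above all control eyes, *RBS* lesion 1 lay below the highest of them, and the Shh-MBs reached into both other groups. The means of 149.9 ± 17.2 and 110 ± 15.2 differed by 0.45 (1.36-fold, 95% CI 0.16 to 0.74, adjusted *p* = 0.0171). The call was lost under median centring (0.27, adjusted *p* = 0.133) and quantile normalization (0.25, adjusted *p* = 0.158). *RBS* lesions differed from Shh-MBs by 0.29 (95% CI -0.11 to 0.68, adjusted *p* = 0.182), and Shh-MBs from control eyes by 0.16 (95% CI -0.30 to 0.62, adjusted *p* = 0.555). Neither was called, the first turned to -0.56 under median centring, and the second was called there at 0.83 (adjusted *p* = 0.0268). Both moved with single Shh-MBs left out, still without a call. The first was 0.10 without Shh-MB 1 and 0.43 without Shh-MB 2, and the second was 0.34 and 0.019.

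*Casp8*, the initiator at death receptors, was low in Shh-MBs. Shh-MBs 1 to 3 gave 41.7, 38.0 and 26.1. *RBS* lesions 1 to 5 gave 67.8, 81.9, 78.8, 78.4 and 80.1, and control eyes 1 to 4 gave 81.5, 79.4, 76.8 and 113. The Shh-MBs lay below all eyes, and the eye groups overlapped, with control eye 4 alone above 100 and *RBS* lesion 1 alone below 70. Means were 35.3 ± 8.16, 77.4 ± 5.55 and 87.6 ± 16.8. Shh-MBs fell by 1.30 on the log2 scale against control eyes (log2 difference -1.30, 95% CI -1.80 to -0.79, adjusted *p* = 0.00281), a call that was missed after quantile normalization (-0.40, adjusted *p* = 0.110). *RBS* lesions were 2.20-fold above Shh-MBs (log2 difference 1.14, 95% CI 0.76 to 1.51, adjusted *p* = 0.000401), and this was 0.29 under median centring and 0.03 after quantile normalization, without a call in either. Between *RBS* lesions and control eyes the difference was -0.16 (95% CI -0.45 to 0.13, adjusted *p* = 0.331), and under median centring it was -0.34 and just called (adjusted *p* = 0.0470).

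*Casp9*, the initiator of the apoptosome, was not called in any comparison or under any of the 4 scalings. Its signal was 101, 46.3, 40.9, 83.2 and 59.9 in *RBS* lesions 1 to 5. It was 86.2, 65.2, 54.5 and 64.7 in control eyes 1 to 4 and 59.6, 43.6 and 43.9 in Shh-MBs 1 to 3. All 3 groups overlapped, and *RBS* lesions 1 and 4 were the highest of their group, as they were for *Bax* and *Trp53*. The coefficient of variation in *RBS* lesions was 38.1%, the widest of the 8 genes there, with 46.4 to 69.0 counts behind each value. The difference between *RBS* lesions and control eyes was -0.09 (95% CI -0.71 to 0.52, adjusted *p* = 0.800). With single samples left out it ranged from -0.26, without *RBS* lesion 1, to 0.057, without *RBS* lesion 3. Between *RBS* lesions and Shh-MBs the difference was 0.36 (95% CI -0.35 to 1.07, adjusted *p* = 0.342). Shh-MBs and control eyes differed by -0.45 (95% CI -0.91 to 0.01, adjusted *p* = 0.107). Both differences with Shh-MBs changed sign with the scaling. Under median centring and quantile normalization they were -0.49 and -0.71 for *RBS* lesions less Shh-MBs, and 0.21 and 0.45 for Shh-MBs less control eyes.

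**Figure D2:**
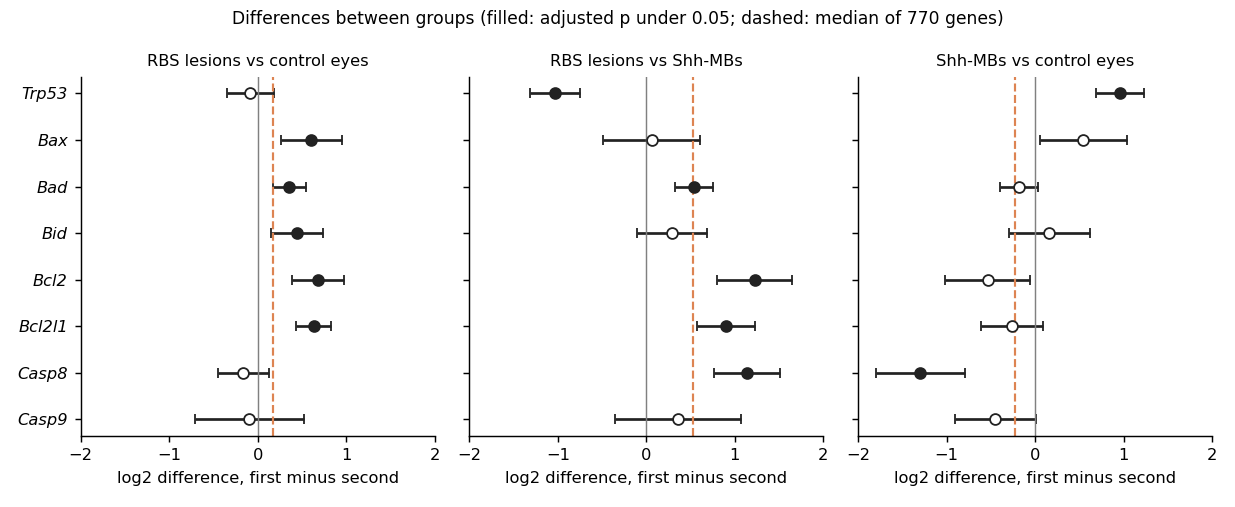
Log2 difference of each gene in the 3 comparisons, first group minus second, with 95% confidence intervals. Filled points have an adjusted *p* under 0.05, and the dashed line is the median of all 770 genes (0.17, 0.53 and -0.22 from left to right). *Trp53* lies on the other side of the zero line from the called members in the middle panel.

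In the deposited values the order of the group means was *RBS* lesions above control eyes above Shh-MBs for *Bcl2l1*, *Bcl2* and *Bad*. The first step was called for each of these genes and the second for none. For *Bax* and *Bid* the order was *RBS* lesions, Shh-MBs, control eyes, with neither neighboring step called in either gene. For *Trp53* it was Shh-MBs, control eyes, *RBS* lesions, with the first step called. For *Casp8* and *Casp9* it was control eyes, *RBS* lesions, Shh-MBs, and the one step called was that of *Casp8* from *RBS* lesions to Shh-MBs.

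A ratio of 2 genes within a sample is left as it is by 1 factor per sample, apart from the 1 added to each signal, but not by quantile normalization. The log2 ratio of *Bax* to *Bcl2*, which sets the effector against its inhibitor, was 2.75, 2.55, 2.53, 2.88 and 2.46 in *RBS* lesions 1 to 5. It was 2.99, 2.36, 2.82 and 2.66 in control eyes 1 to 4 and 3.85, 4.38 and 3.14 in Shh-MBs 1 to 3. The eye groups overlapped, and each Shh-MB lay above each eye. Since probes differ in efficiency, the level of a ratio has no meaning of its own, and the group differences carry the information. The mean in *RBS* lesions, 2.63 ± 0.18, was 0.08 below that of control eyes, 2.71 ± 0.27 (difference -0.08). Without control eye 1 this difference was 0.018 and without control eye 2 it was -0.19, so it has no settled sign. Shh-MBs, at 3.79 ± 0.62, were 1.08 above control eyes and 1.16 above *RBS* lesions. After quantile normalization, tried on the ratios after the data had been seen, Shh-MBs were 0.35 above control eyes and 0.55 above *RBS* lesions.

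The log2 ratio of *Bcl2l1* to *Bcl2*, the 2 protective genes, varied less. It was 2.89 to 3.19 in *RBS* lesions (mean 3.06 ± 0.12), 2.77 to 3.30 in control eyes (3.11 ± 0.24) and 2.98 to 3.75 in Shh-MBs (3.39 ± 0.39). All 3 groups overlapped. The difference between *RBS* lesions and control eyes was -0.05 (0.012 without control eye 1, -0.17 without control eye 2), and that between Shh-MBs and control eyes was 0.28. The latter ranged from 0.096, without Shh-MB 2, to 0.48, without Shh-MB 3, when single samples were left out, and was -0.45 after quantile normalization. No test was made on either ratio.

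**Figure D3:**
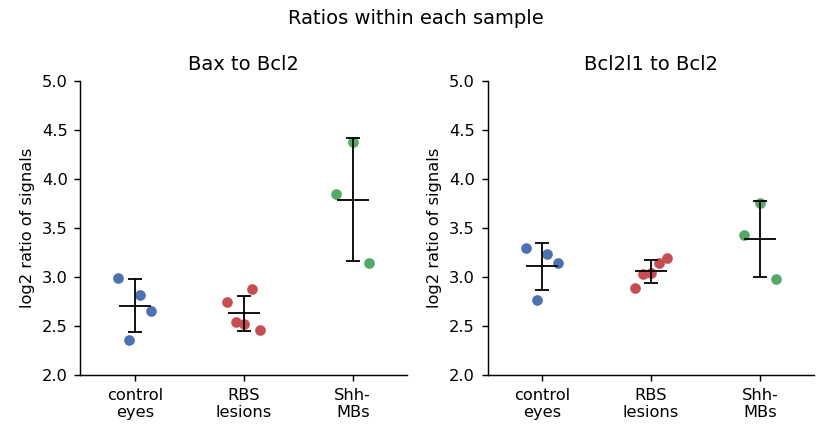
Log2 ratio of *Bax* to *Bcl2* (left) and of *Bcl2l1* to *Bcl2* (right) within each sample, from the deposited values, with the axis starting at 2. Points are samples, wide bars means and whiskers 1 SD. The 3 Shh-MBs lie at 3.14 to 4.38 on the left, above the 2.36 to 2.99 of both eye groups.

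How samples are scaled to each other bore on some calls in each comparison. In *RBS* lesions against control eyes, *Bcl2* and *Bcl2l1* were called under all 4 scalings, with log2 differences of 0.50 to 0.68 and 0.37 to 0.63. *Bax* was called under 3 of them and *Bad* and *Bid* under 2. In *RBS* lesions against Shh-MBs, *Trp53* was called under all 4, *Bcl2l1* under 3, *Bcl2* and *Casp8* under 2, and *Bad* and *Bax* under 1 each and with opposite signs. For Shh-MBs against control eyes, *Trp53* was called under all 4, *Bax* and *Casp8* under 3, *Bid* under 2, and *Bad* and *Bcl2l1* under 1.

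**Figure D4:**
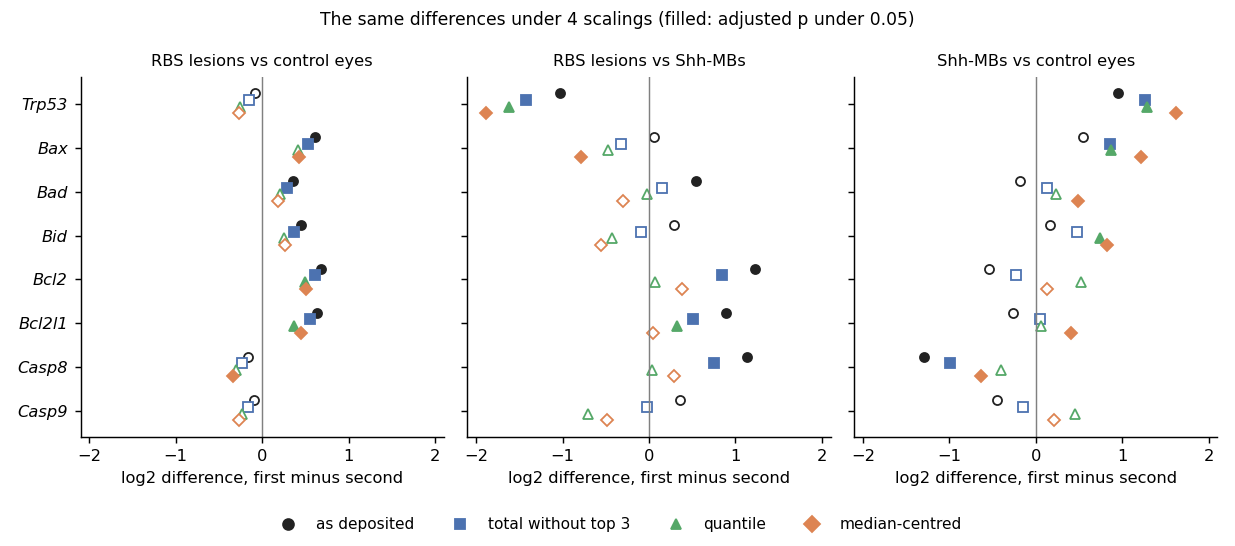
Log2 differences of the 8 genes under 4 scalings of the samples: as deposited, scaled to the summed signal without the top 3 genes, quantile normalized, and centred on the sample median. Filled symbols have an adjusted *p* under 0.05. The symbols of *Trp53* stay below -1 in the middle panel, while those of *Bad* fall on both sides of 0.

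For each member the 2 panel genes of most similar pattern were sought, as the smallest root mean square (RMS) difference of centred log2 values over the 12 samples among 628 genes. *Trp53* was nearest to *Sufu*, a brake on Hedgehog signaling (RMS 0.14, with means of 357 in control eyes, 351 in *RBS* lesions and 791 in Shh-MBs), and to *Fancc*, a gene of interstrand crosslink repair (RMS 0.21). *Bax* was nearest to *Alas1* (0.12), the first enzyme of heme synthesis, and *Rbx1* (0.16), a ubiquitin ligase subunit. *Bad* was nearest to *E2f5* (0.096) and *Fbxw11* (0.10), and *Bid* to *Pik3r2* (0.14) and *Ptpn11* (0.16). For *Bcl2* these genes were *Sos2* (0.22) and *Mapk9* (0.22), and for *Bcl2l1* they were *Ppp2r1a* (0.11) and *Mapk3* (0.13). *Casp8* was nearest to *Ccnd3* (0.22) and *Smad2* (0.24), and *Casp9* to *Spry4* (0.27) and *Nras* (0.29), the loosest match of the 8. No member was among the 2 nearest genes of another member. These likenesses are descriptions over 12 samples of 3 groups.

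The panel holds 47 other genes of these pathways, taken from lists by role. Of these, 13 were higher and 10 lower in *RBS* lesions than in controls, 26 higher and 4 lower in *RBS* lesions than in Shh-MBs, and 3 higher and 17 lower in Shh-MBs than in control eyes. Over all genes the shares called higher and lower were 33% and 18.2% in the first comparison, 48.1% and 12.7% in the second and 9.61% and 31.4% in the third, and the counts of these genes lay near them. Their median log2 differences were 0.12, 0.61 and -0.32, beside 0.17, 0.53 and -0.22 over all genes.

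*Casp12*, an endoplasmic reticulum caspase, measured 44.7 to 68.9 in Shh-MBs, 22.7 to 43.8 in control eyes and 16.0 to 48.1 in the lesions. Its level was 1.00 higher on the log2 scale in Shh-MBs than in control eyes (adjusted *p* = 0.0232, and 1.67 and 2.00 under median centring and quantile normalization), a call lost without Shh-MB 1 or 2 or without control eye 1, 2 or 3 (adjusted *p* of 0.0544 to 0.0823).

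Of 11 regulators and partners of p53, 3 were higher and 4 lower in *RBS* lesions than in controls, beside 33% and 18.2% of all genes. *Mdm2*, the ubiquitin ligase that limits p53, was 124 to 149.6 in *RBS* lesions, with 102 to 137 for control eyes, and was not called (log2 difference 0.15, 95% CI -0.09 to 0.40, adjusted *p* = 0.276). Against Shh-MBs *Mdm2* was higher in *RBS* lesions by 0.40 (adjusted *p* = 0.00892), while it was lower, at -0.45 and -0.39, under median centring and quantile normalization. The checkpoint kinase *Chek1*, also on the list of dividing-cell genes, was 79.2 to 123 in *RBS* lesions, with 222 to 247 for control eyes (log2 difference -1.23, adjusted *p* = 7.61e-05). *Cdkn2b*, a cell cycle inhibitor, was 18.7 to 33.3 in *RBS* lesions, with 8.47 to 11.5 for control eyes (log2 difference 1.34, adjusted *p* = 0.000168), and rested on 7.45 to 11.1 counts in the latter. The coactivator *Ep300* was 587 to 699 in *RBS* lesions, with 267 to 286 for Shh-MBs (log2 difference 1.18, adjusted *p* = 2.13e-05), a difference of 0.34 under median centring (adjusted *p* = 0.0421) and of 0.59 after quantile normalization. *Prkdc*, the DNA-dependent kinase that phosphorylates p53, was 0.93 below control eyes in Shh-MBs (log2 difference -0.93, adjusted *p* = 0.00393), a call lost under median centring (-0.26, adjusted *p* = 0.271) and quantile normalization (-0.30, adjusted *p* = 0.184).

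Of 12 p53 target genes, 2 were higher and 3 lower in *RBS* lesions than in controls, and in Shh-MBs 0 were higher and 7 lower than in control eyes. Of all genes of the panel, 9.61% were called higher and 31.4% lower in that second comparison, a balance that depends on the scaling, since median centring moved the share of higher among called genes from 23.4% to 69.1%. *Cdkn1a*, the p21 cell cycle inhibitor, was not called in any of the 3 comparisons (log2 difference 0.19 between *RBS* lesions and control eyes, adjusted *p* = 0.460, and -0.28 between Shh-MBs and control eyes, adjusted *p* = 0.237). Between *RBS* lesions and Shh-MBs its difference was 0.47 (adjusted *p* = 0.0622). That difference passed the threshold with genes of low signal left out (adjusted *p* = 0.0433), with a trended and robust prior (0.0411) and without *RBS* lesion 2 (0.0377), and was -0.37 and not called under median centring (adjusted *p* = 0.0986). *Gadd45a*, a stress sensor, was 230.3 to 302 in *RBS* lesions, 212 to 287 in Shh-MBs and 803 to 1018 in control eyes. Its log2 differences were -1.81 (adjusted *p* = 5.14e-06) and -1.80 (adjusted *p* = 0.000113, and -1.13 under median centring) against control eyes. *Thbs1*, an extracellular matrix protein that curbs vessel growth, was 2.51 to 4.29 in Shh-MBs, close to the lowest values, and 99.7 to 148 in control eyes. *Fas*, the death receptor upstream of caspase 8, was 27.6 to 44.8 in *RBS* lesions, 5.43 to 17.0 in control eyes and 6.16 to 8.27 in Shh-MBs. It was 1.98 higher in *RBS* lesions than in controls (adjusted *p* = 0.000411) and rested on 5.36 to 14.5 counts in the latter.

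Of 13 genes of the death receptor pathway, 3 were higher, *Fas* among them, and 1 lower in *RBS* lesions than in controls, both below the 33% and 18.2% of all genes. The gene called lower was *Tnfrsf10b*, the TRAIL receptor, at 23.6 to 36.5 against 37.5 to 49.0 (log2 difference -0.45, adjusted *p* = 0.0332), a call lost without *RBS* lesion 1, 2 or 4 or without control eye 1, 2 or 4 (adjusted *p* of 0.0516 to 0.0841). *Irak3*, a brake on innate immune signaling, had the lowest value of the sample in 2 Shh-MBs and 6.44 to 26.1 in control eyes (adjusted *p* = 0.0138, 0.0525 without Shh-MB 2 and 0.0737 after quantile normalization). Of the other Bcl2 family on the panel, *Bcl2a1a*, a protective gene with near-identical copies whose RNA the probe may share, was 33.3 to 57.6 in *RBS* lesions, with 6.44 to 19.5 for control eyes (log2 difference 1.95, adjusted *p* = 0.000545). It was 38.3 to 56.7 in Shh-MBs. *Bnip3*, a hypoxia-induced BH3-like gene, had a lowest signal of 660.2, a median of 733 and a highest of 1955 (*RBS* lesion 4) in *RBS* lesions, against 1485 to 2414 in control eyes. Its difference of -1.03 was called (adjusted *p* = 0.0245), with overlap, and the call was lost without any 1 of *RBS* lesions 1, 2, 3 and 5 or of control eyes 1 and 2 (adjusted *p* of 0.0503 to 0.0696). In Shh-MBs *Bnip3* was 209 to 304, below every eye sample. It was lower there than in control eyes by a log2 difference of -2.87 (adjusted *p* = 7.43e-05) and higher in *RBS* lesions than in Shh-MBs by 1.85 (adjusted *p* = 0.00230), and both were called under all 4 scalings.

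Of the 2 inhibitors of apoptosis proteins, *Birc7* was 28.7 to 66.2 in control eyes and 1.64 to 25.4 in *RBS* lesions, at the lowest value in *RBS* lesion 1 (log2 difference -2.48, adjusted *p* = 0.00935), and was 7.10 to 8.10 in Shh-MBs. Of 6 kinases that phosphorylate Bad, 3 were higher and 0 lower in *RBS* lesions than in controls, where 33% of all genes were called higher. Their median log2 difference was 0.26, beside 0.17 over all genes. *Prkacb*, a catalytic subunit of protein kinase A, was 741 to 1176 in *RBS* lesions, with 364 to 462 for control eyes (log2 difference 1.31, adjusted *p* = 0.000114). *Pim1* was 61.9 to 87.7 in Shh-MBs against 34.3 to 40.9 in control eyes (log2 difference 0.90, adjusted *p* = 0.00353, and 1.57 and 1.80 under median centring and quantile normalization) and 15.5 to 43.4 in *RBS* lesions.

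**Figure D5:**
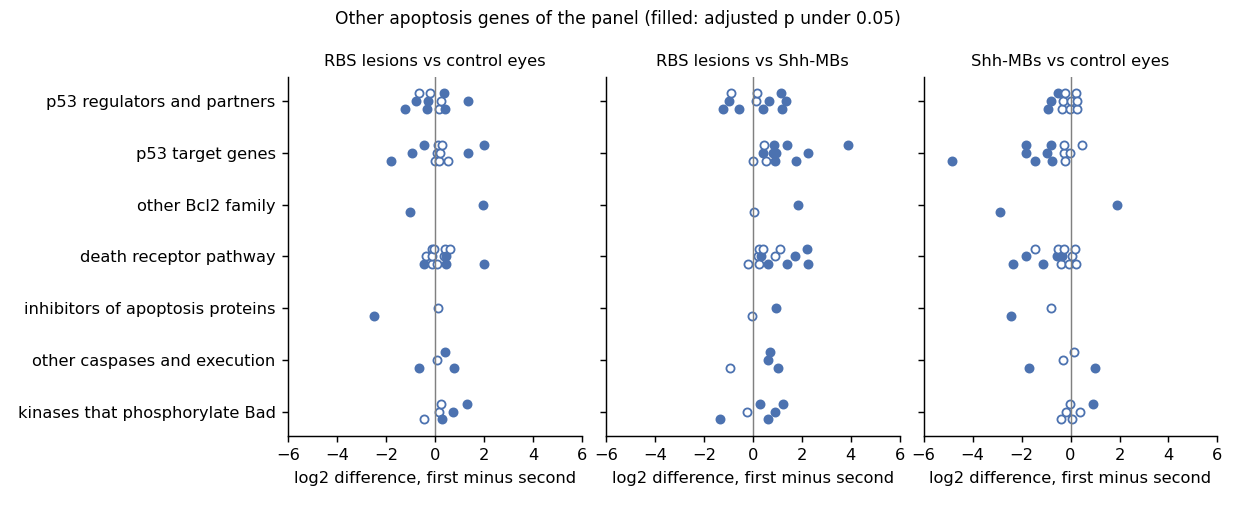
Log2 differences of the 47 other apoptosis genes of the panel, by role list, in the 3 comparisons. Each point is a gene, filled where the adjusted *p* is under 0.05, and a gene of 2 lists is drawn in both. The p53 targets in the right panel, Shh-MBs against control eyes, hold 7 filled points below 0 and none above, in a comparison where 31.4% of the panel was called lower with the deposited values.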

How the data were processed

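Levels of RNA were measured in 12 murine samples. The authors normalized them in nSolver with its Advanced Analysis module, and the deposited values are linear normalized signal, with background subtracted, 1 factor per sample and a lowest value shared by genes without signal. The background setting is not given in the sources used here. The step between low values gave each sample's depth. From these values log2(signal + 1) was computed, without a filter, and groups were compared 2 at a time with limma 3.58.1 in R 4.3.3 (lmFit, eBayes, two-sided, Benjamini-Hochberg over 770 genes, threshold 0.05). The steps were tested on simulated data. Gene symbols matched the mouse RefSeq table (GRCm38.p6) directly for 760 genes and by an older name for 10. Members and lists were chosen with earlier results of these data known, so no list supports its own direction. Named beside the 8 members are *Mdm2* and *Cdkn1a*, per list and comparison the called, non-overlapping gene with the largest rise and fall, and the 2 genes nearest in pattern, and some genes under this rule are not reported here. Alternatives were a pseudocount of 5, a filter at a mean of log2(20), 3 other scalings, all samples in 1 fit, trend and robust settings, the methods' *t*-test with 2 adjustments (*p* from the *t* distribution), exact permutation, a replicate block and leaving out each sample. Python 3.11.15 and matplotlib 3.10.9 were used for descriptions and figures.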

Additional observations from a re-analysis of the deposited data

Results flagged for a closer look

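Within groups of 4 or 5 samples, the sample farthest from the others was compared with Dixon's critical value on the log2 scale. Of 54 groups tested, 8 passed, where chance alone passes about 5%. *Bcl2* in *RBS* lesion 1 was the highest of its group, with a gap of 0.916 of the range (signal 92.4). *Casp8* in control eye 4 was the highest, at 0.846 (signal 113), and *Casp8* in *RBS* lesion 1 the lowest, at 0.771 (signal 67.8). Among the other genes, *Chek1* stood out as highest in control eye 2 (0.906), *Gadd45a* as highest in *RBS* lesion 3 (0.871) and *Bnip3* as highest in *RBS* lesion 4 (0.855). *Fas* was lowest in *RBS* lesion 2 (0.812), and *Prkacb* lowest in *RBS* lesion 1 (0.715). Of these 8, 3 belong to *RBS* lesion 1, the shallowest sample. Without it the log2 difference between *RBS* lesions and control eyes was 0.60 for *Bcl2* (adjusted *p* = 0.00222) and -0.12 for *Casp8* (adjusted *p* = 0.501). Without control eye 4 the difference of *Casp8* was -0.037 (adjusted *p* = 0.767), against -0.16 with all samples.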

How the results depend on the processing

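Leaving out single samples gave 5 calls each time among the 8 genes in both comparisons of *RBS* lesions and gave 2 to 3 for Shh-MBs against control eyes. Over all genes it gave 350 to 392 calls for *RBS* lesions against control eyes and 423 to 478 against Shh-MBs. For Shh-MBs against control eyes it gave 250 to 313 calls over all genes. For the other apoptosis genes it gave 13 to 19 calls there, against 20 with all samples, the lowest without Shh-MB 2. For *RBS* lesions against control eyes, calls among the 8 fell from 5 to 2 after quantile normalization, *Bcl2* and *Bcl2l1*. Calls over all genes went from 394 to 364 there. Step-down Bonferroni on the methods' *t*-test left 1 of the 8 (*Bcl2l1*), 72 of all genes (394 in limma) and 3 of the other apoptosis genes (23). Against Shh-MBs, median centring gave 2, *Trp53* and, with the opposite sign and not called before, *Bax*, with 500 of all genes (468). Quantile normalization gave 2 (*Trp53*, *Bcl2l1*), with 439 of all genes. Step-down Bonferroni gave 2 (*Trp53*, *Bad*), with 80 of all genes and 3 other apoptosis genes (30). For Shh-MBs against control eyes, limma called 2 of the 8, the filter on low signal 4, with *Bax* and *Bcl2* added, and median centring 6. Over all genes these gave 316, 302 (of the 545 kept by the filter) and 450 calls. There step-down Bonferroni gave 0 of the 8, 36 of all genes (316) and 2 others (20), and Benjamini-Hochberg on the same test gave 9 others. Exact permutation gave 0, 0 and 0, its smallest *p* at 4 against 3 samples being 0.0286 (0.0703 after adjustment), while 4 of the 8 had an unadjusted *p* under 0.05 in limma.

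Of the differences called with the deposited values or under the alternative, these changed sign, and some called under neither did so too. For *RBS* lesions against Shh-MBs under median centring they were *Bax* -0.78, *Bad* -0.31, *Mdm2* -0.45 and *Bcl2a1a* -0.79. After quantile normalization they were *Bad* -0.024, *Mdm2* -0.39, *Cdkn2b* -0.093, *Bcl2a1a* -1.13 and *Tnfrsf10b* -0.17. For Shh-MBs against control eyes under median centring they were *Bad* 0.49 and *Bcl2l1* 0.40. Median centring moved the share of higher among called genes from 64.5% to 50%, from 79.1% to 36.2% and from 23.4% to 69.1% in the 3 comparisons, and the cause was not tested. The ratios to *Bcl2*, recomputed after the data were seen, moved under quantile normalization: *Bax* to 0.35 and *Bcl2l1* to -0.45 for Shh-MBs less control eyes, and to 0.55 and -0.26 for Shh-MBs less *RBS* lesions (0.33 for *Bcl2l1* as deposited).

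Replicate numbers did not pair samples (correlations of same-numbered samples from -0.15 to 0.19). With the replicate number as a block, the call of *Bid* between *RBS* lesions and control eyes was lost (0.42, adjusted *p* = 0.0599). With this block the other apoptosis genes called were 15 there and 13 for Shh-MBs against control eyes, beside 301 and 230 of all genes. The limits are 3 to 5 samples per group and, for *Fas*, *Thbs1*, *Cdkn2b*, *Birc7*, *Irak3* and *Bcl2a1a*, few counts over background.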
